A study of Mus musculus with 12 samples.

Results

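Mouse bone-marrow macrophages given 0.2 U/ml of interferon gamma (IFNγ), the lowest of 3 doses, were compared with untreated macrophages. Of the 46729 entries of the deposited table, 11580 were compared: those whose mean over the 4 groups of the study reached 1 FPKM and that had no value of 0. FPKM is the number of sequenced fragments per length of transcript and per size of the library, so levels can be compared between genes per length. An entry is a gene, or several overlapping genes that the table merges. The comparison rests on 6 of the 12 libraries of the study, 3 untreated and 3 at 0.2 U/ml.

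All groups were bone marrow cells of C57BL6 mice, grown with interleukin-3 and with medium conditioned by L-929 cells, which supplies colony-stimulating factor 1. The differentiation time of every group was 10 days. The medium was then replaced by fresh medium, with no IFNγ in the untreated group and with 0.2, 2 or 20 U/ml in the other groups, and the cells were kept so for 8 h. For the highest dose the label gives units with no volume, which was read as U/ml. The labels do not say whether the 3 libraries of a group came from separate animals or cultures. The table gives 1 value per entry and group, so no difference in this text has a replicate check, an error or a test.

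IFNγ is made by T cells and natural killer cells and activates macrophages against microbes that live inside cells. Its receptor has the chains Ifngr1 and Ifngr2 and signals through the kinases Jak1 and Jak2 to transcription factors that bind GAS elements in DNA. Further transcription factors are then switched on, among them Irf1, and factors of the IRF family act through ISRE elements. The known targets include GTPases that attack the vacuoles of microbes, the immunoproteasome, the machinery of antigen presentation and chemokines that attract T cells.

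The cells carried the markers of macrophages. Of 15 macrophage identity genes 14 could be compared, 0 were higher or lower at 0.2 U/ml, and their median log2 ratio was 0.04. Csf1r, the receptor of colony-stimulating factor 1, was at 349 FPKM untreated and 340 at 0.2 U/ml. Spi1, the transcription factor PU.1, was at 250 and 268, and Cd68, a lysosomal glycoprotein, at 1814 and 1255. Lyz2, the lysozyme gene of macrophages, was listed at 0 in 3 groups and at 7449 FPKM at 20 U/ml, and it was left out for that reason.

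Most markers of other cells were at low values, and their summed levels were alike in the untreated and the 0.2 U/ml group. Under 1 FPKM in all groups were 12 of 13 markers of T and NK cells, whose sum was 3.40 FPKM in untreated cells and 3.00 at 0.2 U/ml, and all 10 of mast cells and basophils, at 0.681 and 0.762. The same held for all 8 erythroid markers, with sums of 0.461 and 0.380, and for 5 of 8 B cell markers, with 10.6 and 10.4. It held for 7 of 12 neutrophil markers, with 44.5 and 40.05, for 6 of 9 dendritic cell markers, with 18.3 and 22.3, for 8 of 12 stromal and endothelial markers, with 121 and 136, and for 2 of 8 osteoclast markers, with 52.4 and 44.8. The T cell genes Cd3e, Cd3g and Trac and the B cell gene Pax5 were listed at 0 in every group. So was a merged entry of mitochondrial messenger RNAs that every cell uses, so a listed 0 does not show a low level in this table. Pecam1, an adhesion gene of endothelial cells and leukocytes, was the only marker of these lists among the compared entries that was higher at 0.2 U/ml, at 3.41 against 0.691 FPKM. Pecam1 reached the mean of 1 FPKM only through its value at 0.2 U/ml. Among markers left out for their low mean, the dendritic cell gene Siglech was at 1.97 against 0.177, and the B cell gene Ms4a1 at 1.09 against 0.242. Others went the other way, such as the B cell gene Cr2, at 0.0650 against 0.171. Of the abundant markers, Vwf, the von Willebrand factor of endothelial cells, was at 130 against 118. In bulk RNA, fewer cells of a type and less RNA per cell cannot be told apart.

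Medians of the entries compared were close, at 12.3, 12.9, 12.8 and 13.3 FPKM from untreated to the highest dose. The median log2 ratio of 0.2 U/ml to untreated, computed as log2(FPKM + 1), was 0.00. An entry was called higher or lower when this ratio was 1 or more, or -1 or less, a 2-fold difference. By this rule 5.23% of the entries were higher at 0.2 U/ml and 0.328% were lower. At 2 U/ml 2.5% were higher and 0.76% lower, and at 20 U/ml 6.51% were higher and 2.94% lower. The lowest dose thus had more higher entries than the dose above it. All 3 comparisons share the untreated values.

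The counts move with how the groups are scaled. When the sums of FPKM were made equal, the median log2 ratio at 0.2 U/ml moved by -0.36, and 322 entries were higher and 103 lower, so that 75.8% of the called entries were higher, beside 94.1% on the deposited scale. Upper-quartile scaling moved the median by -0.10 and quantile normalization by -0.12, with 509 and 467 entries higher. Ratios are given on the deposited scale and can be read against these shifts.

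The 606 higher entries at 0.2 U/ml were split by what the same entries showed at the other doses. At every dose 61 entries were higher, 0.527% of all compared. A larger set of 447 entries, 3.86%, was higher at 0.2 U/ml alone, with a log2 ratio under 0.5 at both other doses. The remaining 98, 0.846%, belonged to neither set. The median level of the entries higher at every dose was 8.63, 35.2, 68.0 and 197 FPKM from untreated to the highest dose. The median level of those higher at 0.2 U/ml alone was 7.90, 27.0, 6.93 and 5.47 in the same order. The first 2 of these levels differ little between the sets, and the sets part at the higher doses. These medians follow from how the sets were chosen and are a description.

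**Figure D1:**
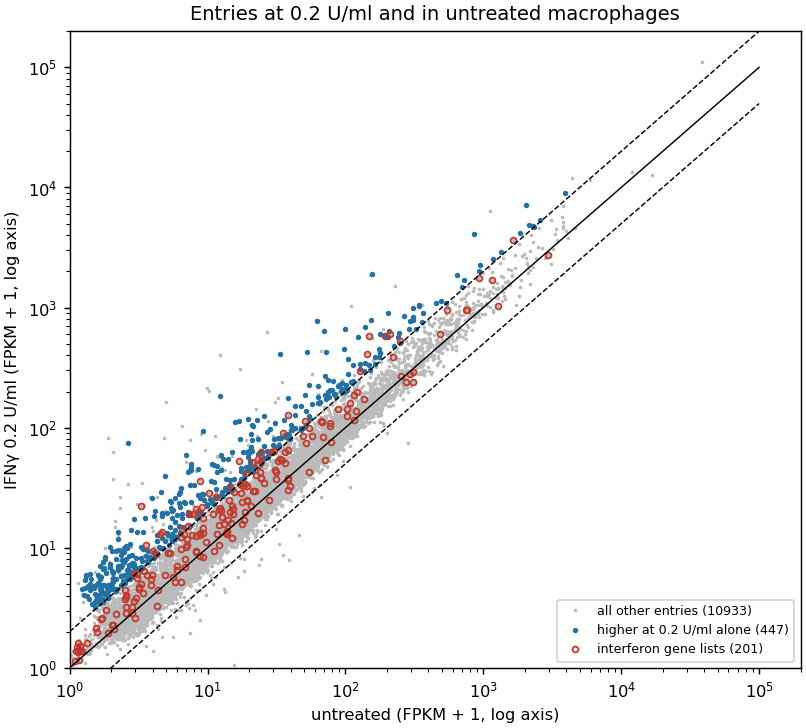
Level of each entry in untreated cells (horizontal, FPKM + 1, log axis) and at 0.2 U/ml (vertical, FPKM + 1, log axis), with equality as the solid line and 2-fold differences dashed. The 447 entries higher at 0.2 U/ml alone (blue) lie above the upper dashed line over the whole range of levels, while most of the 201 entries of interferon gene lists (red circles) lie above equality and 37 of them past the line.

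Known interferon genes were taken from 19 lists with 201 compared entries. At 0.2 U/ml 37 of these were higher, 18.4%, beside 5.23% of all entries, and 0 were lower. Their median log2 ratio was 0.52, and 85.1% of them were above 0, beside 50.3% of all entries. Of the 37 higher entries 35 were higher at every dose, with all 4 values in the order of dose, and 1, Canx, was higher at 0.2 U/ml alone. At 2 U/ml 115 of the 201 were higher, and at 20 U/ml 158. In 148 of them, 73.6%, the 4 values stood in the order of dose, as they did in 9.28% of all entries. Entries that were higher at every dose with values in that order numbered 47, 0.406% of all, and 35 of them were in the interferon lists. Some members, such as Gm4841 at 0.135, 0.482, 2.53 and 18.5 FPKM in the order of dose, reached the mean of 1 FPKM only through the higher doses. The lists were also chosen with earlier results of these data known, so the shares in the order of dose are a description. With equal sums of FPKM 13 of the 201 were higher and 0 lower, and the median of 12 of the 19 lists was above 0 and that of 7 below, beside a median of -0.36 over all entries. On the deposited scale 18 medians were above 0 and 1 below.

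**Figure D2:**
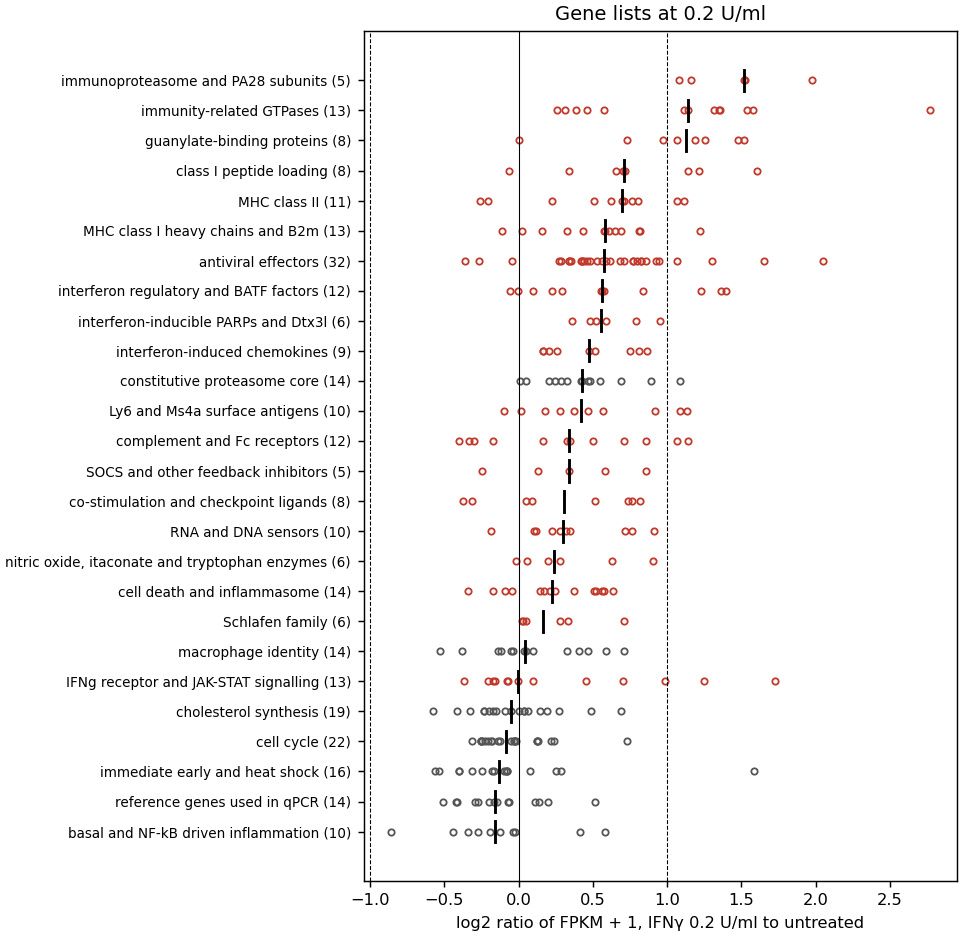
Log2 ratio of 0.2 U/ml to untreated (horizontal, of FPKM + 1) for each compared entry (circles) of the gene lists named at the left, with the number of entries in brackets and the median as a black bar; interferon lists are red and other lists grey, and dashed lines mark the size rule. Medians run from 1.51 in the immunoproteasome and PA28 list to -0.16 in the list of NF-kB driven inflammation.

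The subunits of the immunoproteasome were the list with the highest median among interferon genes. This form of the proteasome cuts proteins into peptides suited to MHC class I, and PA28 is its activator cap. All 5 members passed the rule at 0.2 U/ml, 3 of them with equal sums of FPKM or after quantile normalization, and their median log2 ratio was 1.51, while the medians at 2 and 20 U/ml were 1.95 and 2.47. Psmb10, a catalytic subunit (chromosome 8, 105935735 to 105938444 on GRCm38), was at 146 FPKM untreated and, in the order of dose, at 579, 628 and 814. Its level at 0.2 U/ml was 71.2% of that at 20 U/ml.

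The other catalytic subunits are encoded near each other on chromosome 17, Psmb8 from 34197721 to 34201454 and Psmb9 from 34181987 to 34187764. Tap1 lies between them, from 34187553 to 34197225. Psmb8 was at 211, 605, 819 and 1176 FPKM in the order of dose, and Psmb9 at 143, 413, 585 and 808. The PA28 subunit genes were at 250, 530, 667 and 1110 for Psme1 and at 1643, 3676, 4863 and 7580 for Psme2. For all 5 subunits the step from untreated to 0.2 U/ml was larger on the log2 scale than either later step. At 0.2 U/ml they stood at 47.7% (Psme1) to 71.2% (Psmb10) of the level at 20 U/ml.

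The constitutive proteasome core moved less. Of its 14 entries 1 was higher at 0.2 U/ml, Psmb4, at 695 FPKM untreated and, in the order of dose, at 1474, 876 and 786. Over all entries 5.23% were higher at 0.2 U/ml. The list's median was 0.42 at 0.2 U/ml, and 0.22 and 0.47 at the higher doses. The median of 0.42 became 0.01 with equal sums of FPKM and 0.11 after quantile normalization.

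Guanylate-binding proteins and immunity-related GTPases, which attack pathogen vacuoles, were already higher at the lowest dose in most entries on the deposited scale. With equal sums of FPKM their medians at 0.2 U/ml were 0.774 and 0.766, under the rule. Of 8 guanylate-binding protein entries 5 were higher, with a median of 1.13, and all 8 were higher at 2 and at 20 U/ml, with medians of 3.44 and 4.83. Gbp2 was at 8.13, 20.8, 150 and 343 FPKM in the order of dose. Gbp2b was at 10.6, 25.4, 186 and 632. For both genes the largest of the 3 steps on the log2 scale lay between 0.2 and 2 U/ml. Gbp4, Gbp8 and Gbp9 share an entry, which was at 9.23, 27.5, 144 and 281.

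Members of the family differed. Gbp5 was at 2.09 FPKM untreated and 5.06 at 0.2 U/ml, a log2 ratio of 0.97 just under the rule, and went on to 31.1 and 123. Gbp11, annotated as a pseudogene, was at 0.165 and 0.169 FPKM, and at 2.28 and 8.89 at the higher doses. The level at 0.2 U/ml was 1.90% of that at 20 U/ml for Gbp11 and 11.4% for the merged entry of Gbp7, the lowest and highest of the family.

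Of 13 entries of immunity-related GTPases 8, 10 and 13 were higher in the order of dose, with medians of 1.14, 2.90 and 4.11. Irgm1, a regulator of the family (chromosome 11, 48861968 to 48871683), was at 23.2, 51.5, 179 and 366 FPKM in the order of dose. Iigp1, which coats the vacuole of Toxoplasma, was at 5.53, 13.4, 129 and 415, and the merged entry of Igtp and Irgm2 at 19.9, 51.0, 197 and 526. The log2 ratio at 0.2 U/ml ran from 0.26 for 9930111J21Rik2 to 2.77 for Gm4951. The merged entry of 9930111J21Rik1 and Psme2b did not follow the dose, at 7.27, 20.2, 11.5 and 16.2.

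**Figure D3:**
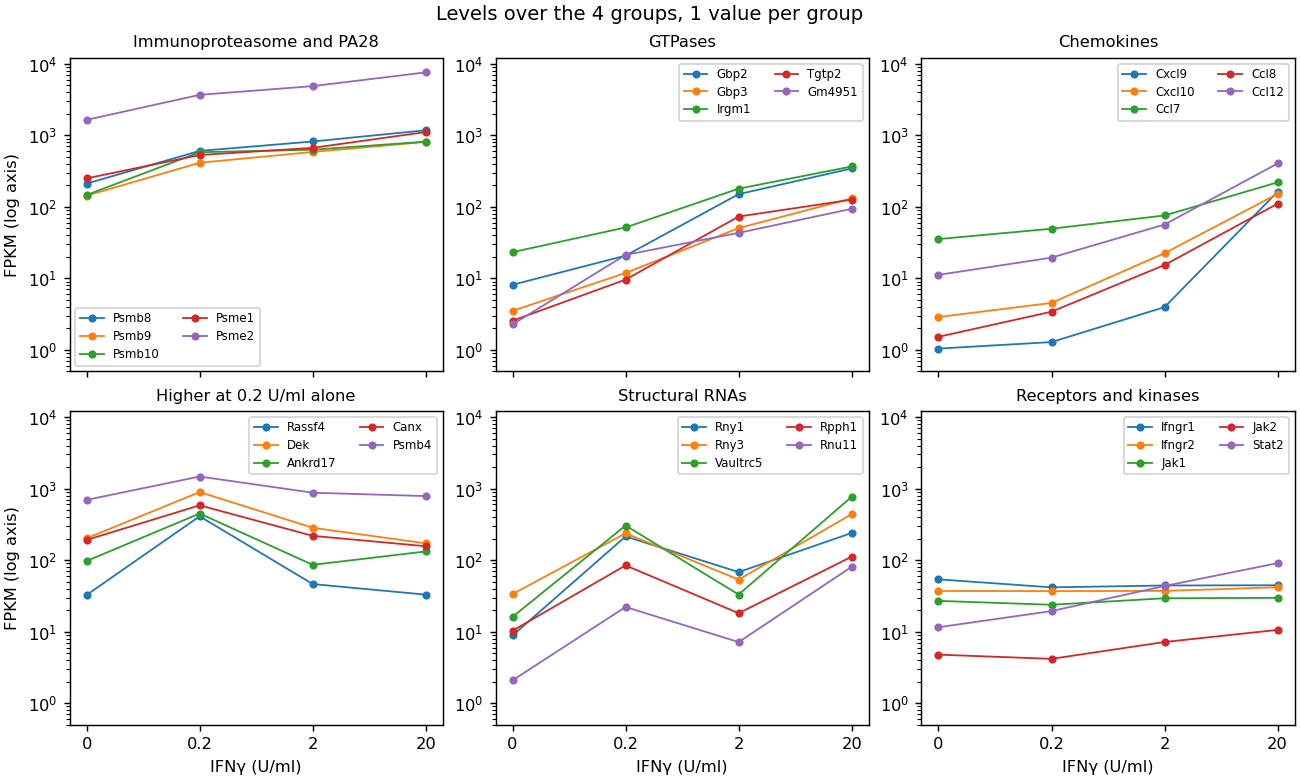
Level (vertical, FPKM, log axis) of 5 genes per panel against IFNγ dose (horizontal, U/ml, equal spacing), with 1 value per group and no error. Psmb10 goes from 146 to 579 FPKM at the first step and Cxcl10 from 22.5 to 151 at the last; Canx is at 583 at 0.2 U/ml and at 218 and 156 at the higher doses, and Rny3 is at 237, 53.5 and 440.

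Among the signalling genes the receptor and its kinases were near untreated levels. Ifngr1 was at 53.9 FPKM untreated and 41.6 at 0.2 U/ml, Ifngr2 at 37.0 and 36.9, Jak1 at 26.9 and 23.8, and Jak2 at 4.77 and 4.17. Of 13 entries 2 were higher, among them Nmi, a partner of STAT proteins, at 22.3, 54.3, 61.5 and 106 FPKM in the order of dose. Stat3 was just under the rule, at 16.1 and 32.9 FPKM with a log2 ratio of 0.99, and Stat2 was at 11.5 and 19.4.

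The inhibitors that IFNγ induces stood below the rule. Socs1, which blocks the JAK kinases, was at 2.06 FPKM untreated and, in the order of dose, at 4.55, 17.9 and 138. Socs3 was at 1.06 and 1.26, and Usp18, an inhibitor of the type I interferon receptor, at 7.81 and 12.2. They belong to a list of 7 feedback inhibitors, of which 5 could be compared and 0 were higher. The list's median of 0.34 is the value of Pias1. Pias1 and Pias3 were near untreated levels at 20 U/ml too, with log2 ratios of 0.236 and -0.007, so this median does not describe induced inhibitors alone.

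Of 12 entries of IRF, BATF and related regulators 3 were higher at 0.2 U/ml. Irf1 (chromosome 11, 53770014 to 53778374) was at 34.1, 89.1, 293 and 511 FPKM in the order of dose. Nlrc5, the transactivator of MHC class I genes, was at 6.28, 18.1, 34.5 and 64.7, and Batf2 at 3.04, 8.44, 27.7 and 89.8. Irf7 missed the rule with 17.2 and 31.4 FPKM, while Irf5, at 78.0 and 74.9, and Batf, at 5.88 and 5.85, were level.

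In antigen presentation 3 of 8 entries for peptide loading on MHC class I were higher, and the median of the list was 0.71. Tap1, a chain of the peptide transporter, was at 27.7, 62.3, 183 and 325 FPKM, and Tapbpl, a peptide editor, at 7.56, 18.9, 44.8 and 61.2. The third, the chaperone gene Canx, did not follow the dose, at 191, 583, 218 and 156. Tap2 was at 67.0 and 110 and stayed under the rule.

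Of 13 MHC class I entries 1 was higher, the nonclassical gene H2-T23, at 126, 294, 543 and 949 FPKM. The list's median was 0.58. H2-K1 was at 543 untreated and 957 at 0.2 U/ml, with 955 and 1155 at the higher doses, so that its level at 0.2 U/ml was 82.9% of that at 20 U/ml. H2-D1 was at 482 and 604, and B2m, the light chain of class I, at 2940 and 2717.

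For MHC class II 2 of 11 entries were higher, and the list's median was 0.69. H2-Ab1, a chain of the class II molecule, was at 6.25, 14.2, 56.8 and 181 FPKM, and H2-DMa, a chain of its peptide editor, at 13.7, 30.8, 109 and 261. Ciita, which switches class II genes on, was at 0.157 FPKM untreated and, in the order of dose, at 0.353, 2.79 and 7.56. The merged entry of the invariant chain Cd74 and Mir5107 was at 65.9 and 113, under the rule.

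The antiviral effectors were the longest list, and 4 of its 32 entries were higher, with a median of 0.58. Ifit1, which binds foreign RNA (chromosome 19, 34640871 to 34650009), was at 7.76, 35.2, 47.5 and 176 FPKM in the order of dose. Zbp1, a sensor of Z-form nucleic acids, was at 15.9, 52.1, 163 and 437, and Ifit3 was at 6.71, 18.0, 60.6 and 247. Isg15, a ubiquitin-like modifier, was at 29.4, 62.6, 174 and 942. The largest step on the log2 scale was the first for Ifit1 and the last for Isg15. At 2 U/ml 23 of the 32 were higher and at 20 U/ml 29.

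Several groups of IFNγ targets had 0 entries higher at 0.2 U/ml by the rule, which adds 1 FPKM. Without the added 1, Ccl8, Acod1, Parp11 and Socs1 were more than 2-fold higher, Ccl8 at 3.42 FPKM against 1.52 untreated. With 0.1 FPKM added instead, 52 entries of the interferon lists were higher, beside 37. For 9 interferon-induced chemokines the median was 0.47 at 0.2 U/ml, and 1.28 and 5.05 at the higher doses, and 7 and 9 of them were higher at the upper doses. Cxcl9, which attracts T cells, was at 1.04, 1.28, 3.96 and 163 FPKM, and Cxcl10 at 2.88, 4.54, 22.5 and 151. The level of Cxcl9 at 0.2 U/ml was 0.791% of that at 20 U/ml, the lowest share among the 158 interferon entries that were higher at 20 U/ml. Over those 158 the share had a median of 21.03%, was at least 50% in 19 and under 10% in 47. It is a share of the whole level, with the untreated level in it, and not the part of the response reached. Untreated Irf5 was already at 38.0% of its level at 20 U/ml, beside 36.5% at 0.2 U/ml, while untreated Cxcl9 was at 0.641%.

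The other lists with 0 entries higher were the PARPs, with 6 entries and a median of 0.56, the RNA and DNA sensors, with 10 and 0.30, the co-stimulation and checkpoint ligands, with 8 and 0.30, the nitric oxide, itaconate and tryptophan enzymes, with 6 and 0.24, the cell death and inflammasome genes, with 14 and 0.23, and the Schlafen family, with 6 and 0.16. Parp11 came closest in the first of these, at 5.74 and 12.0 FPKM. Acod1, which makes itaconate, was at 2.44 FPKM untreated and, in the order of dose, at 5.45, 30.3 and 125. Cd274, the checkpoint ligand PD-L1, was at 6.06, 10.8, 34.2 and 104. Nos2, which makes nitric oxide, was at 0.0921 and 0.137 FPKM, levels at which the FPKM + 1 scale shows little. Members whose mean over the groups was under 1 FPKM, such as Irf4, Ido1, Arg1, Slfn4 and H2-Ob, were not compared.

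Of 12 complement and Fc receptor entries 2 were higher, with a median of 0.34, and of 10 Ly6 and Ms4a surface antigens 2, with a median of 0.42. C1qa, a chain of the first complement component, was at 50.1, 112, 112 and 167 FPKM, and Fcgr4, an activating Fc receptor, at 22.3, 48.0, 141 and 396. Ly6a was at 18.1, 40.8, 231 and 1678. C1qa was thus at the same level at 0.2 and 2 U/ml, while Ly6a at 0.2 U/ml was at 2.43% of its level at 20 U/ml.

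Outside the lists, 26 further entries were higher at every dose. Aif1, an actin-binding protein of macrophages (chromosome 17, 35170991 to 35176068), was at 56.3, 279, 391.5 and 580 FPKM, the highest log2 ratio at 0.2 U/ml, 2.29, among protein coding genes with values in the order of dose outside the GTPases. Chosen after their values were seen, Fam26f was at 8.39, 26.1, 94.1 and 359, the cyclin gene Ccnd2 at 2.47, 7.76, 12.2 and 28.7, and Il18bp, which binds and blocks interleukin-18, at 2.55, 6.24, 42.2 and 131. Il18bp lay just inside the rule, with a log2 ratio of 1.03. All 36 protein coding genes that were higher at every dose had their 4 values in the order of dose. Of the 14 entries higher at every dose that did not, 9 were RNAs under 200 nt.

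Sequences before the start of transcription were read for single-gene entries with a promoter in RefSeq (GRCm38.p6), over 250 bases before and 50 after the start. The core of the ISRE was searched as GAAA, any 2 bases and GAAA again, and the GAS as TTCNNNGAA, on both strands, and matches of the ISRE core may overlap each other. A promoter was found for 26 of 55 single-gene entries higher at every dose, of which 14 held the ISRE core, 53.8%, and 5 the GAS, 19.2%. Of 192 with a promoter among 419 single-gene entries higher at 0.2 U/ml alone, 5 held the ISRE core, 2.60%, and 17 the GAS, 8.85%. All 7702 compared single-gene entries with a promoter gave 3.84% and 8.26%, and all 27025 genes with a promoter in RefSeq 3.99% and 9.55%. A match is a description of these letters and not a shown binding site.

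The next promoters show where the letters lie, as the 150 bases before the start, 5′ to 3′ on the strand of the gene, with matches to either motif in capitals. The first 7 belong to genes higher at every dose, and the last 2, Canx and Dek, to genes higher at 0.2 U/ml alone, whose stretches hold no match.
Irf1, chr11:53769864-53770013 (+ strand): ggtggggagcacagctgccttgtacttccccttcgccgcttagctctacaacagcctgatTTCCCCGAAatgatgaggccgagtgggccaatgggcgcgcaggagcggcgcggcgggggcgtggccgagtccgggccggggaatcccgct
Tgtp2, chr11:49064213-49064362 (- strand): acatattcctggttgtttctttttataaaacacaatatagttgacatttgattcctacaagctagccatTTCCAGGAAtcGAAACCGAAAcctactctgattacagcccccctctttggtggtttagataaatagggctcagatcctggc
Gm12250, chr11:58183693-58183842 (+ strand): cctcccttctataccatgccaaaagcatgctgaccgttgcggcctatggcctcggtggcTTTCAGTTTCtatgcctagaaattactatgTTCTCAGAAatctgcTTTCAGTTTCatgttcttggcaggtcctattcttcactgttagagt
Gbp2b, chr3:142594697-142594846 (+ strand): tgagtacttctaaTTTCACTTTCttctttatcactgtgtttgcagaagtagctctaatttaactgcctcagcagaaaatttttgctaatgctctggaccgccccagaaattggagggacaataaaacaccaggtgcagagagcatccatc
Ifit1, chr19:34640739-34640888 (+ strand): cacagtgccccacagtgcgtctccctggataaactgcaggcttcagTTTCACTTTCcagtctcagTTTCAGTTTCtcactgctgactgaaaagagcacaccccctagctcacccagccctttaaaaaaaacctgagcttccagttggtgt
Ifit3, chr19:34583379-34583528 (+ strand): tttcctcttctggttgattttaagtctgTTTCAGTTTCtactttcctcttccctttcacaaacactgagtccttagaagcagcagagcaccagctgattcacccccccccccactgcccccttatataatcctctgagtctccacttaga
Isg15, chr4:156200819-156200968 (- strand): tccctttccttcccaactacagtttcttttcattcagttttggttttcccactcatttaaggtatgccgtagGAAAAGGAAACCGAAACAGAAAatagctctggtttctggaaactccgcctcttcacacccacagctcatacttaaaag
Canx, chr11:50325674-50325823 (- strand): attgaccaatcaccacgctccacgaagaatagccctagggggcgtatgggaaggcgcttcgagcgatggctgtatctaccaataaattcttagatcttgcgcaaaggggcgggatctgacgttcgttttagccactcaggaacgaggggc
Dek, chr13:47106222-47106371 (- strand): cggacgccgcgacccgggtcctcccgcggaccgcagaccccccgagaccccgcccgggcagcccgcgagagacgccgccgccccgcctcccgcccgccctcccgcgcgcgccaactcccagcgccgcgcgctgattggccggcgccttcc

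In Irf1 the match is a GAS. RefSeq gives this gene another start, and the 150 bases before it, not shown, hold no match. A gene with several promoters was counted when any of them held the motif. In Tgtp2 a GAS stands beside an ISRE core. Gm12250 holds a GAS between ISRE cores read on the other strand. In Isg15 the ISRE cores overlap in 1 run. The values of Irf1 and Isg15 are given above. Tgtp2 was at 2.55 FPKM untreated and, in the order of dose, at 9.60, 73.1 and 126, and Gm12250 at 3.68, 12.6, 52.8 and 184. GENCODE marks Gm12250 as a pseudogene from 58187739 to 58189012 on chromosome 11. The printed RefSeq stretch ends at 58183842, so it does not adjoin that gene model.

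**Figure D4:**
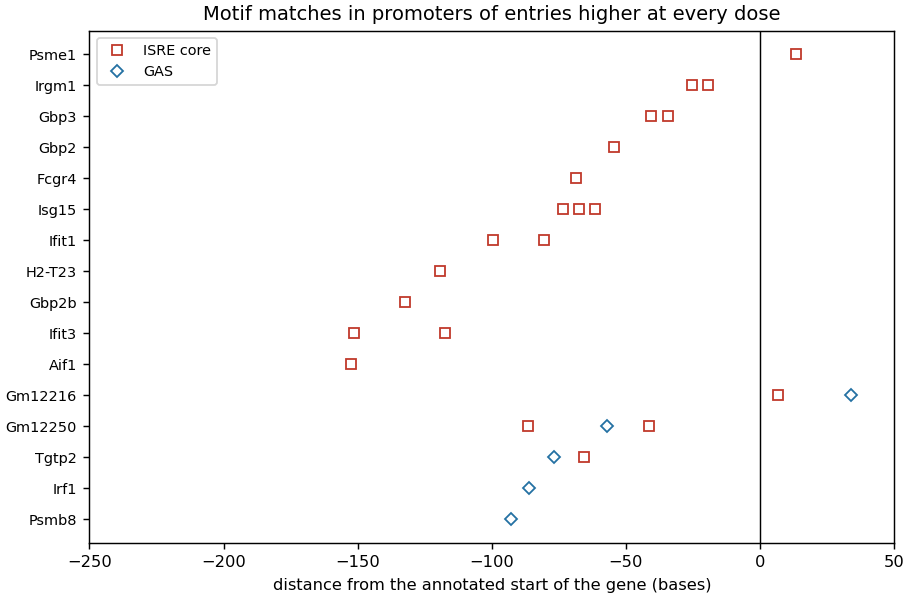
Distance of each motif match from the annotated start (horizontal, bases, start at 0) in the promoters of genes higher at every dose that hold one, with the ISRE core as squares and the GAS as diamonds. Of 26 genes higher at every dose with a promoter, 16 held a match. Most matches lie before the start, as does most of the window searched, 250 bases before and 50 after it.

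The entries higher at 0.2 U/ml alone were another group of genes. Rassf4, a gene with a RAS association domain (chromosome 6, 116633008 to 116673952), was at 32.6 FPKM untreated and, in the order of dose, at 410, 46.3 and 32.9. Its log2 ratio of 3.61 was the highest among protein coding genes. Canx, a chaperone of the endoplasmic reticulum (chromosome 11, 50293961 to 50325673), was given above. Hsp90aa1, the inducible cytosolic chaperone, was at 342, 1030, 335 and 341. It was the only higher entry of 16 compared in the list of immediate early and heat shock genes, whose median was -0.13.

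Further abundant members were chosen after their values were seen. Dek, a chromatin protein, was at 202, 894, 284 and 172 FPKM in the order of dose, and Metap2, which removes the first methionine of proteins, at 263, 854, 313 and 242. Ankrd17 was at 97.2, 448, 85.9 and 132. The rule of the set itself puts the level at 0.2 U/ml above the other groups. Luc7l3 and Rbm25, which act in splicing, were at 1047 and 635 FPKM at 0.2 U/ml against 340 and 206 untreated. Atp5e, a subunit of the mitochondrial ATP synthase, was at 2039, 7134, 2535 and 1559, and Gpx4, which removes lipid peroxides, at 2129, 4903, 1855 and 1303.

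Genes of ribosomes and translation were mostly level. Of 63 cytosolic ribosomal protein genes in single-gene entries 2 passed the rule at 0.2 U/ml, and the median was 0.26. They were Rplp1, of the ribosomal stalk, at 3903, 9001, 3855 and 3021 FPKM, and Rpsa, at 454, 1098, 455 and 343. Of 8 elongation factor entries 1 was higher, the merged entry of Eef1a1 and Gm26377, at 38698, 111215, 60270 and 30480 FPKM, and the list's median of 0.32 became -0.10 with equal sums. Of 18 snoRNA host genes 2 were higher, and the list's median of 0.39 became -0.02 with equal sums. Over all entries 5.23% were higher.

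Some entries higher at 0.2 U/ml alone were at low levels in the other groups. Pou1f1, a pituitary transcription factor, was at 1.77 FPKM untreated and, in the order of dose, at 13.0, 2.48 and 0.982. The olfactory receptor gene Olfr93 was at 2.98, 24.7, 2.29 and 1.85, and Plscr2, a gene of the scramblase family, at 1.95, 16.3, 1.70 and 1.48. Chosen after their values were seen, Wnt4, a secreted signal, was at 1.03 and 5.35 FPKM untreated and at 0.2 U/ml, and Gcm1, a factor of the placenta, at 0.307 and 4.89. That the group at 0.2 U/ml was above the other groups in each of these genes follows from how the set was chosen. Gcm1 reached the mean of 1 FPKM only through its value at 0.2 U/ml.

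The 447 entries together held 5.30% of the summed FPKM of the untreated group, and 10.5%, 5.24% and 3.62% of that of the treated groups in the order of dose. Protein coding single genes made up 227 of them. The longest GENCODE transcript had a single exon in 34.9% of the 435 matched members, beside 11.5% of all matched entries. Here and in the next values exons were counted in that transcript only, so a gene with other, spliced transcripts can count as single-exon. The protein coding members were close to all protein coding entries in structure, with a median of 8 exons in both, a longest transcript of 3903 nt beside 3323 and a GC content of 48.9% beside 49.4%. The protein coding genes higher at every dose had a median of 4 exons and spanned 8750 bp, beside 23380 bp for all.

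The share of higher entries differed between kinds of genes. Of 9490 protein coding genes in single-gene entries 3.16%, 2.21% and 6.07% were higher in the order of dose. For 207 RNAs under 200 nt the shares were 37.2%, 12.6% and 19.8%, and for 28 structural RNAs of 200 nt or more they were 85.7%, 10.7% and 39.3%. Of 161 TEC entries, gene models that GENCODE marks as still lacking experimental evidence, 28.6% were higher at 0.2 U/ml, and 0 and 3.11% at the higher doses. Long noncoding RNAs gave 9.95%, 2.21% and 6.003%, and pseudogenes 12.3%, 3.62% and 7.61%. In every one of these noncoding kinds the lowest dose had the largest share, and in protein coding genes the highest dose had.

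**Figure D5:**
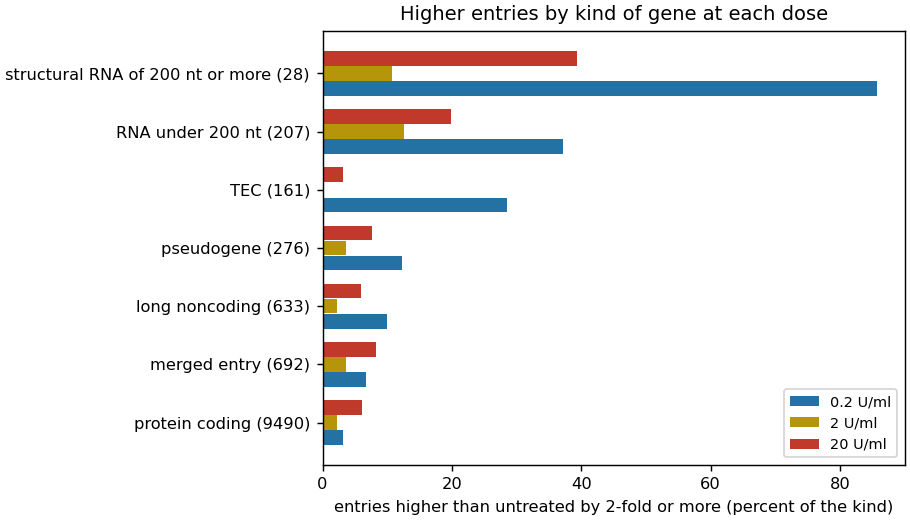
Share of compared entries that were higher than untreated by the size rule (horizontal, percent of the kind) at 0.2 (blue), 2 (yellow) and 20 U/ml (red), for each kind of gene with its number of entries in brackets. The blue bar is the longest in the 5 noncoding kinds, up to 85.7%, and shorter than the red bar for protein coding genes, at 3.16% beside 6.07%, and for merged entries.

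The level of an entry went with the share too. Counted without a pseudocount, 22.97% of entries with a mean of 0.3 to 1 FPKM were at least 2-fold higher at 0.2 U/ml, beside 7.70% at 2 U/ml and 12.6% at 20 U/ml. Between 10 and 30 FPKM the shares were 4.17%, 2.23% and 6.70%. At 1000 FPKM or more, over 119 entries, they were 14.3%, 2.52% and 7.56%. The entries at both ends of the range thus had larger shares at 0.2 U/ml than those in the middle.

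RNAs made by RNA polymerase III and other small structural RNAs formed the list with the highest median. Of 12 such genes 8 could be compared. In the order of dose 8, 2 and 8 of them were higher, and their median log2 ratios were 2.85, 0.75 and 3.89. The Y RNA Rny1, a partner of the Ro protein, was at 8.84 FPKM untreated and, in the order of dose, at 214, 68.0 and 240, and Rny3 at 33.5, 237, 53.5 and 440. The vault RNA Vaultrc5 was at 16.1, 305, 33.0 and 769. Rpph1, the RNA of RNase P, was at 10.3, 84.5, 18.1 and 112, and Rnu11, of the minor spliceosome, at 2.09, 22.1, 7.15 and 80.8. These RNAs were high at 0.2 and 20 U/ml and lower between them, an order unlike that of the protein coding interferon genes. Rny1, Rny3, Vaultrc5 and Rnu11 are 102 to 143 nt long. Of RNAs under 200 nt 37.2% were higher and 9.66% lower at 0.2 U/ml, beside 5.23% and 0.328% of all entries. How far FPKM can be trusted at such lengths was not tested.

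Other noncoding entries were near the top of the ranking. The small nucleolar RNA Snord118 was at 7.97, 87.7, 24.6 and 94.2 FPKM, and Snord16a at 3.84, 81.4, 29.6 and 56.7. Gm23413, an RNA under 200 nt, was at 1.64, 73.0, 1.84 and 2.39, higher at 0.2 U/ml alone. Malat1, a long nuclear RNA, was at 550 FPKM untreated and 1007 at 0.2 U/ml, with 465 and 498 at the higher doses, under the rule with a log2 ratio of 0.87.

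Genes of miRNAs gave 25 entries, of which 6 were higher and 3 lower at 0.2 U/ml around a median of 0.34. Over all entries 5.23% were higher and 0.328% lower, and over RNAs under 200 nt 37.2% and 9.66%. A sequence was found in RefSeq (GRCm38.p6) for 22. The 3 miRNA genes with the largest ratios are shown by their mature sequence, with the seed, bases 2 to 8, in capitals. The seeds differ from each other.
mmu-miR-6240, chr5:114851973-114851998 (+ strand): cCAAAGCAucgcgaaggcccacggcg
mmu-miR-1195, chr17:70860558-70860580 (- strand): uGAGUUCGaggccagccugcuca
mmu-miR-6236, chr9:110281353-110281371 (+ strand): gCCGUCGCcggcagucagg

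Mir6240 was at 11.3 FPKM untreated and, in the order of dose, at 399, 48.1 and 91.5. Mir1195 was at 4.00, 161, 67.0 and 30.01, and Mir6236 at 26.1, 628, 37.5 and 179. Each had its highest value at 0.2 U/ml. The entries are the genes of the hairpins in a library of total RNA, so these values do not measure the mature miRNAs.

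Among the 98 entries in neither set, Lars2, the leucyl-tRNA synthetase of mitochondria, was at 228, 1500, 372 and 2095 FPKM, a log2 ratio of 2.71 at 0.2 U/ml. Like the structural RNAs it was high at 0.2 and 20 U/ml. The merged entry of Gfra4 and Mir6973b was at 1.06, 62.3, 1.59 and 9.69.

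Few entries were lower. Of the 38, 20 were RNAs under 200 nt, 8 merged entries, 6 pseudogenes, 3 protein coding genes and 1 a long noncoding RNA. The protein coding genes were Prss36, a serine protease, at 4.58 FPKM untreated and, in the order of dose, at 0.798, 4.40 and 4.55, Gm5741, at 3.69, 0.816, 2.13 and 1.05, and Gm10135, at 17.5, 7.03, 11.5 and 19.1. Prss36 was low at 0.2 U/ml only. Under the rule, Ccl3, an inflammatory chemokine, was at 47.8, 25.9, 22.03 and 11.7, a log2 ratio of -0.86. Ncoa4, which carries ferritin to lysosomes, was at 21.1, 11.2, 13.6 and 7.81.

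Lists of processes outside the interferon response were level at 0.2 U/ml. Of 19 cholesterol synthesis genes 0 were higher or lower, with a median of -0.05, and of 22 cell cycle genes 0, with a median of -0.09. The same was found for 10 genes of NF-kB driven inflammation, with a median of -0.16, and 14 reference genes of quantitative PCR, with a median of -0.16. Gapdh was at 1435 FPKM untreated and 1188 at 0.2 U/ml, and Actb at 16813 and 12629. Gas6, a ligand of receptors for dying cells, was at 171, 123, 72.2 and 19.3 FPKM, so that its log2 ratio at 0.2 U/ml was -0.47.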

How the data were processed

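RNA of mouse bone-marrow macrophages was sequenced from total RNA, per the labels. TopHat2 2.1.1, Cufflinks 2.1.1, Cuffdiff 2.1.1 and the build mm10 are named in the submitters' processing notes. Per the file headers, the values the authors deposited are FPKM, fragments scaled to transcript length and library size. There is 1 value per entry and group. For the untreated column, whose header gives no unit, FPKM was assumed from its range. The sources used here do not say whether a value pools the 3 libraries of its group, and the depth of the libraries is unknown. A deposited Cuffdiff comparison names no dose and was not used here.

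The table has 46729 entries. In 11852 of them the mean over the 4 groups reached 1 FPKM, and 272 of these, listed at 0 in at least 1 group, were left out. The ratio was the difference of log2(FPKM + 1). This scale understates differences of low genes. With 1 value per group no test could be made, although limma on values per library had been planned, so entries were counted by size. An entry was higher at 1 or more and lower at -1 or less.

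Genes were matched to GENCODE M21 on GRCm38, directly or through RefSeq synonyms, for 99.2% of the entries used. Promoters and miRNAs came from RefSeq tables on GRCm38.p6. At 79.1% of the promoters with a GENCODE transcript, the transcript began on the printed strand near the start.

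The genes named, if they reached 2 FPKM in either group, were the 10 highest and 10 lowest entries at 0.2 U/ml, the same without RNAs under 200 nt, the same over protein coding genes, and the 10 highest among entries higher at every dose. Members of the interferon signalling, GTPase, proteasome and antigen presentation lists, the 5 largest ratios of each other list and a set of fixed genes could be named too, and a few items that this names are not reported here. The comparison, the 39 gene lists and the classes were chosen with earlier results of these data known. Python 3.11.15, pandas 2.3.3, numpy 2.4.6, statsmodels 0.14.6 and matplotlib 3.10.9 were used, and the classes were tested on simulated data. Alternatives were 2 other pseudocounts, other filters, 3 scalings, removal of a trend with GC content and length, and a 1.5-fold rule.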

Additional observations from a re-analysis of the deposited data

How the results depend on the processing

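No paired analysis was possible because each group has 1 value per entry, and leaving out replicates was not run for the same reason. Entries higher or lower, higher, lower, higher alone, higher at every dose and so in the order of dose numbered 644, 606, 38, 447, 61 and 47, and 37 interferon entries were higher. In the same order, the 1.5-fold rule gave 1510, 1346, 164, 1035, 170, 124 and 87, equal sums of FPKM gave 425, 322, 103, 232, 28, 15 and 13, and a pseudocount of 5 gave 371, 354, 17, 265, 32, 22 and 22. Protein coding genes alone gave 303, 300, 3, 227 and 36 for the first 5. A pseudocount of 0.1 gave 71 lower, 108 at every dose, 83 in order and 52 interferon entries higher. A mean of at least 5 FPKM gave 24 lower and 290 alone. Lower entries were 106 with zeros kept, 18 without RNAs under 200 nt and 93 after removal of the trend with GC content and length. The share of entries higher alone with a single exon in the longest transcript was 34.9%. Among protein coding genes it was 5.73%, since fewer kinds of genes enter. The ISRE core was in 53.8% of promoters of entries higher at every dose, and in 32.5% under the 1.5-fold rule. The causes of the other moves were not tested. These counts stayed within 1.5 times under the settings not named for them. Counts within single lists moved more: 3 of the 5 immunoproteasome and PA28 subunits were higher after quantile normalization, which also left 0 in the lists of MHC class I, complement and Fc receptors, the constitutive proteasome core, elongation factors and snoRNA hosts. Upper-quartile scaling left 0 in the proteasome core and 1 each in the lists of MHC class II, Ly6 and Ms4a antigens, and complement and Fc receptors. With no filter on low values 1 dendritic cell marker was higher. All 61 entries higher at every dose were above 0 at 0.2 U/ml under every setting in which they were measured, and 25 passed the size rule in each. Depth is unknown, and low FPKM values carry an unknown counting error.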

Other observations

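Histone genes of the Hist clusters were a group that no list held, and they were chosen after their values were seen. Of 19 in single-gene entries 8 were higher at 0.2 U/ml, and 0 and 6 at the higher doses, with medians of 0.72, 0.04 and 0.54. Over all entries 5.23%, 2.5% and 6.51% were higher. The linker histone gene Hist1h1b was at 1.20, 8.78, 1.65 and 2.90 FPKM from untreated to the highest dose, and Hist1h2ak at 0.529, 5.23, 1.62 and 3.07. The more abundant Hist1h1c was at 63.3, 61.8, 36.0 and 27.7, and Hist1h2ap at 115, 117, 86.5 and 59.5. The list of 22 cell cycle genes had 0 entries higher at 0.2 U/ml. Of 189 zinc finger Zfp genes 2 were higher, with a median of -0.06.

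The order of the rows in the deposited table holds a structure of its own. The rows follow the genome and then start again. A restart was counted at a drop of more than 5000 places in genome order, and this gave 8 runs. All rows from the first long run on were taken as 1 run, the last, with 44852 entries. The sources used here do not say what the runs stand for. The first run has 66 entries, of which 44 are in interferon lists, and it holds 55.7% of the entries higher at every dose. The smallest log2 ratio of FPKM in it, in size and without a pseudocount, was 0.75, 0.83 and 1.02 in the order of dose. The fourth run has 417 entries, of which 415 were above untreated at 0.2 U/ml and 0 are in interferon lists, and it holds 35.6% of the entries higher at 0.2 U/ml alone. The smallest ratio in that run was 0.72 at 0.2 U/ml and 0 at 2 and 20 U/ml. The fifth run, with 321 entries, reached down to 0.00 at 0.2 U/ml and to 0.67 and 0.70 at the higher doses.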
